A study of Homo sapiens with 19 samples.

Results

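The mitochondrial genome encodes 13 mRNAs, and 6 of them specify subunits of respiratory complexes III, IV and V: MT-CYB, MT-CO1, MT-CO2, MT-CO3, MT-ATP6 and MT-ATP8. These 6 genes were taken by symbol from the exon and gene-body count tables, which hold 58051 human genes, and all 6 were found and passed the filter on low counts. The libraries came from untreated K562, an established human erythroleukaemia cell line. They fall into 5 groups: nuclear wash without rRNA depletion (3 libraries), and nuclear wash, nucleus, cytoplasm and whole cell, each with rRNA depletion (4 libraries each). Synthetic yeast RNA was spiked in. The labels name the nuclear wash as a fraction without saying what was washed off. Whether the replicates of a group are separate cultures is not stated, so a p-value here describes only how far these libraries scatter, and that scatter may be technical.

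Mitochondria keep a small circular genome whose mRNAs are transcribed, processed and translated inside the organelle, while most subunits of the same complexes are made from nuclear genes and imported. The circle is transcribed into long precursors that are cut apart, mainly at the tRNAs that lie between the coding genes. A mitochondrial mRNA is therefore made in mitochondria and is not a product of the nucleus. Whether its level follows the mitochondria present in a fraction was not tested. In bulk libraries, fewer mitochondria in a fraction and less RNA per mitochondrion cannot be told apart.

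The 11 K562 marker genes had counts in every group, summing to 2078 to 6529 CPM (exon counts scaled to a common library size). On the same scale, in the depleted groups, 6 lymphoid markers summed to 4.65 to 14.8, 6 epithelial markers to 73.3 to 288 and 7 fibroblast or endothelial markers to 19.1 to 85.0. The epithelial KRT14 and the endothelial CDH5 were at 0 in all 5 groups, and the lymphoid CD2, MS4A1 and CD79A in 4 each. MALAT1, a nuclear-retained RNA, averaged 59388 ± 9884 CPM in nucleus and 3147 ± 411 CPM in cytoplasm (SD, n = 4 each). GAPDH, a glycolytic mRNA, averaged 136 ± 6.43 CPM in nucleus and 1886 ± 215 CPM in cytoplasm (SD, n = 4 each). They come from a list of 6 fraction landmarks, with NEAT1, ACTB, HSPA5 and TFRC. Of the 6, 4 were called higher and 2 lower in nucleus than in cytoplasm (edgeR, adjusted p under 0.05). Their log2 fold changes ran from -3.79 to 4.24 with a median of 0.66, so some mRNAs of the list lay higher in nucleus. Exon counts per library were 923464 to 1801293 in undepleted wash and 1373755 to 7955415 in the depleted libraries.

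All 6 genes lie on the same strand of the mitochondrial chromosome (GRCh38, plus strand, 1 exon each, no intron or UTR annotated apart). The genes are MT-CO1 (ENSG00000198804, chrM:5904-7445), MT-CO2 (ENSG00000198712, chrM:7586-8269), MT-ATP8 (ENSG00000228253, chrM:8366-8572), MT-ATP6 (ENSG00000198899, chrM:8527-9207), MT-CO3 (ENSG00000198938, chrM:9207-9990) and MT-CYB (ENSG00000198727, chrM:14747-15887). MT-ATP8 and MT-ATP6 are read from one bicistronic mRNA in different frames, and 46 bases belong to both genes. The 3′ end of MT-ATP6 shares 1 base with MT-CO3, so no tRNA separates these genes. Both junctions are shown because a read that crosses them touches 2 genes, and the sources used here do not give how such reads were counted. Capitals mark the shared bases (GENCODE 29 transcripts, GRCh38).
MT-ATP8 and MT-ATP6, chrM:8515-8584: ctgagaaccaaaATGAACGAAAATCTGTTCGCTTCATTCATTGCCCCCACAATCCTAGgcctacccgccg
MT-ATP6 and MT-CO3, chrM:9195-9219: cgacaacacataAtgacccaccaat

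MT-CO3 and MT-CYB end without a whole stop codon in the DNA, which leaves 1 base after the last triplet. Their stop codon is completed when the mRNA is cleaved and polyadenylated. The last 30 bases of these genes are shown beside those of MT-CO2, which carries a whole stop codon. Capitals mark the stop codon, whole or incomplete.
MT-CO2, chrM:8240-8269: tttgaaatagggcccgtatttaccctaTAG
MT-CO3, chrM:9961-9990: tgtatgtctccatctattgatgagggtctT
MT-CYB, chrM:15858-15887: taattgaaaacaaaatactcaaatgggccT

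The exon and gene-body tables held the same value for the 6 genes in 114 of 114 gene and library pairs. Levels below are CPM scaled by the TMM method of edgeR over the 16 depleted libraries, given for replicates 1 to 4 in turn.

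MT-CYB encodes cytochrome b, the subunit of complex III made in the organelle. It had 4259, 2904, 3928 and 4014 CPM in nuclear wash, 927, 571, 522 and 537 CPM in nucleus, 1171, 1251, 1699 and 2209 CPM in cytoplasm, and 1269, 1141, 1264 and 1519 CPM in whole cell. Wash stood above every other library and nucleus below every other library, while cytoplasm and whole cell overlapped.

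MT-CO1 encodes the catalytic subunit of cytochrome c oxidase (complex IV), which holds the haem and copper centre where oxygen is reduced. It had 17729, 16307, 20953 and 21781 CPM in nuclear wash, 3402, 1661, 2295 and 2229 CPM in nucleus, 11552, 12162, 12695 and 11432 CPM in cytoplasm, and 7585, 8353, 7759 and 8023 CPM in whole cell. No libraries of different groups overlapped, in the order wash, cytoplasm, whole cell, nucleus. MT-CO2 encodes the subunit that receives electrons from cytochrome c. It had 2180.2, 1109.6, 1749.7 and 1900.1 CPM in nuclear wash, 542, 249.9, 280.4 and 283 CPM in nucleus, 1657, 1779.9, 2474 and 4297 CPM in cytoplasm, and 1625, 1362, 1687 and 1948 CPM in whole cell. Nucleus was lowest, and the other 3 groups overlapped; cytoplasm replicate 4 stood above all other libraries.

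MT-CO3 encodes the third core subunit of complex IV. It had 3296, 2039, 3379 and 3730.5 CPM in nuclear wash, 735, 309, 379 and 379.9 CPM in nucleus, 1789.8, 1969.7, 3111 and 4182 CPM in cytoplasm, and 1925, 1562, 1716 and 2287 CPM in whole cell. Outside nucleus the groups overlapped, with the highest value again in cytoplasm replicate 4.

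MT-ATP6 encodes subunit a of the ATP synthase (complex V), part of its proton channel. It had 5098, 2885, 3806 and 4241 CPM in nuclear wash, 1107, 536, 667 and 718 CPM in nucleus, 2257, 2413, 3077 and 4065 CPM in cytoplasm, and 3106, 2884, 2744 and 3549 CPM in whole cell. MT-ATP8, a small subunit of the same enzyme, had 2159.7, 1394, 1650.1 and 1815 CPM in nuclear wash, 449, 202, 244 and 279.7 CPM in nucleus, 946, 1077, 1674 and 2344 CPM in cytoplasm, and 1534, 1471, 1453 and 1686 CPM in whole cell. For both, nucleus lay below every other library and the remaining groups overlapped. Nucleus replicate 1 was the highest of the nuclear libraries for all 6 genes.

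**Figure D1:**
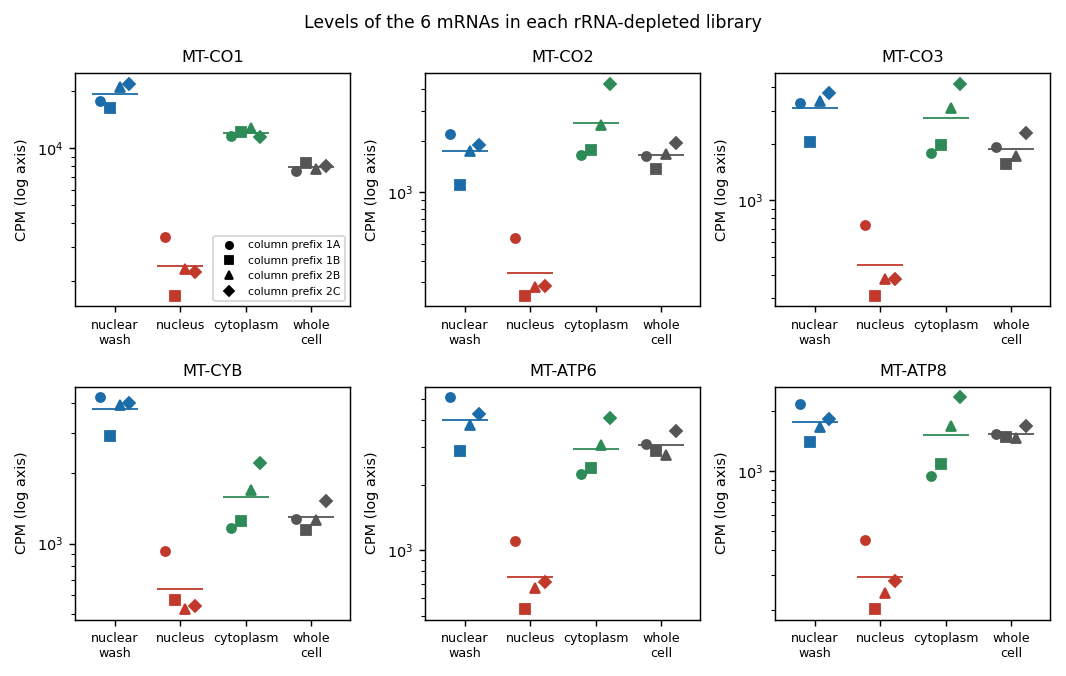
CPM (log axis, TMM scaling) of the 6 mRNAs in the 16 depleted libraries, 1 point per library with the shape giving the column prefix (1A to 2C, replicates 1 to 4) and a line at each group mean. On this scale the nuclear libraries lie lowest in every panel and wash lies above cytoplasm for MT-CO1 and MT-CYB; scaled by the spike-ins, wash is lower than cytoplasm for all 6, and against nucleus 1 of 6, MT-CO1, is called higher.

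Levels can be compared between genes only per length. Per kilobase of exon, MT-CO1 averaged 12446 ± 1686 CPM in nuclear wash, 1554 ± 472 in nucleus, 7756 ± 379 in cytoplasm and 5143 ± 217 in whole cell (SD, n = 4 each). MT-ATP8 averaged 8477 ± 1550.2 CPM per kilobase in nuclear wash, 1418 ± 523 in nucleus, 7297 ± 3091 in cytoplasm and 7419 ± 511 in whole cell. MT-ATP6 averaged 5884 ± 1353 CPM per kilobase in nuclear wash, 1112 ± 360.5 in nucleus, 4336 ± 1207 in cytoplasm and 4509 ± 517 in whole cell. The lower end was MT-CO2 in wash (2536 ± 663) and in nucleus (496 ± 199), and MT-CYB in cytoplasm (1387 ± 419) and in whole cell (1138 ± 139). MT-ATP8 exceeded MT-CO1 in whole cell, where their SDs do not meet. In nucleus and cytoplasm MT-ATP8 and MT-CO1 did not differ beyond their spread. If reads in the 46 shared bases went to neither gene, MT-ATP8 has 161 bases of its own and would reach 10899 ± 1993 CPM per kilobase in wash, 1823 ± 672 in nucleus, 9382 ± 3974 in cytoplasm and 9539 ± 657 in whole cell.

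Nuclear wash was first set against nucleus. All 6 mRNAs were higher in wash (with spike-in scaling 1 was called, and MT-CO2 at -0.19 and MT-ATP6 at -0.14 were not), where 36.7% of the 15940 genes tested were called higher (edgeR quasi-likelihood test, adjusted p under 0.05 by Benjamini-Hochberg over all genes). Log2 fold changes were 3.002 for MT-CO1 (SE 0.18, adjusted p = 1.9e-11), 2.79 for MT-CO3 (SE 0.28, adjusted p = 2.62e-08) and 2.58 for MT-ATP8 (SE 0.26, adjusted p = 2.02e-08). They were 2.56 for MT-CYB (SE 0.21, adjusted p = 1.48e-09), 2.40 for MT-ATP6 (SE 0.22, adjusted p = 7.25e-09) and 2.36 for MT-CO2 (SE 0.29, adjusted p = 3.34e-07). In fold terms the range was 5.12 to 8.01. The libraries did not overlap for 6 of 6 genes, against 62.4% of all genes.

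Nucleus was then set against cytoplasm. All 6 mRNAs were lower in nucleus, where 37.5% of genes were called lower. MT-CO2 had the lowest log2 fold change, -2.91 (SE 0.29, adjusted p = 1.18e-08), a level 7.54-fold higher in cytoplasm. MT-CO3 followed with -2.62 (SE 0.28, adjusted p = 3.19e-08), MT-ATP8 with -2.37 (SE 0.25, adjusted p = 3.38e-08) and MT-CO1 with -2.32 (SE 0.17, adjusted p = 1.29e-10). MT-ATP6 was at -1.96 (SE 0.22, adjusted p = 5.61e-08) and MT-CYB at -1.31 (SE 0.20, adjusted p = 5.68e-06), so the cytoplasmic level of MT-CYB was 2.48-fold the nuclear one. The libraries did not overlap for 6 of 6 genes, against 71.4% of all genes.

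The size of the drop in nucleus was also compared between the column prefixes, whose meaning the labels do not give. Prefix 1 holds replicates 1 and 2, and prefix 2 holds replicates 3 and 4. The test of a difference between prefixes was added after seeing the data and was run in every comparison of the depleted groups. Within prefix 1 the 6 log2 fold changes of nucleus over cytoplasm ran from -2.23 (MT-CO1) to -0.70 (MT-CYB), and within prefix 2 from -3.58 (MT-CO2) to -1.88 (MT-CYB), all called lower in both. The difference between prefixes was called for MT-CYB (prefix 1 minus prefix 2, 1.19 on the log2 scale, adjusted p = 0.0391, edgeR), in a test that called 0.427% of genes. It was 1.46 for MT-CO2 (adjusted p = 0.0869), 1.41 for MT-CO3 (adjusted p = 0.0713) and 1.30 for MT-ATP8 (adjusted p = 0.0752), which did not pass, and neither did MT-ATP6 or MT-CO1. In the other comparisons of the depleted groups this test called none of the 6 genes.

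Nuclear wash against cytoplasm shares the cytoplasm libraries with that comparison. Here 2 of the 6 mRNAs were higher in wash and 0 lower (with spike-in scaling 0 higher and 6 lower), MT-CYB with a log2 fold change of 1.25 (SE 0.20, adjusted p = 4.13e-05) and MT-CO1 with 0.68 (SE 0.17, adjusted p = 0.00222), beside 22.8% of all genes called higher and 21.4% lower. The same pair did not overlap, against 38.2% of all genes. The other 4 were not called: MT-ATP6 at 0.44 (SE 0.21, adjusted p = 0.095), MT-ATP8 at 0.22 (SE 0.24, adjusted p = 0.487), MT-CO3 at 0.17 (SE 0.26, adjusted p = 0.623) and MT-CO2 at -0.56 (SE 0.27, adjusted p = 0.1). Blocking on the replicate number, MT-ATP6 was called higher (0.42, adjusted p = 0.028) and MT-CO2 lower (-0.55, adjusted p = 0.0197). Without cytoplasm replicate 1, MT-CO2 was also called lower (-0.72, adjusted p = 0.0434); without nuclear wash replicate 2 (0.56, adjusted p = 0.0387) or cytoplasm replicate 4 (0.62, adjusted p = 0.024), MT-ATP6 was called higher. Within column prefix 1, MT-CO1 was not called (0.52, adjusted p = 0.0904), while MT-ATP6 (0.77, adjusted p = 0.0351) and MT-ATP8 (0.81, adjusted p = 0.0245) were called higher. Within column prefix 2, MT-CO2 was called lower (-0.89, adjusted p = 8.41e-06). With gene-body counts MT-CO1 was not called (0.33, adjusted p = 0.13) and MT-CO2 was called lower (-0.91, adjusted p = 0.0155).

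Set against whole cell, nuclear wash was higher for 3 of 6 mRNAs (with spike-in scaling 6 were lower), beside 14.6% of all genes. These were MT-CYB (1.54, SE 0.20, adjusted p = 7.03e-06), MT-CO1 (1.28, SE 0.17, adjusted p = 6.75e-06) and MT-CO3 (0.73, SE 0.26, adjusted p = 0.0365), and 2 of the 6 did not overlap, against 29.1% of genes. The call for MT-CO3 was lost when any of 6 single libraries was left out, wash replicates 1, 3 and 4 or whole-cell replicates 1, 2 and 3, with adjusted p of 0.06 to 0.0939. It was also lost with no composition factor (0.41, adjusted p = 0.158) and within column prefix 1 (0.61, adjusted p = 0.14). MT-ATP6 was called higher with no filter on low counts (0.45, adjusted p = 0.0128) and within column prefix 2 (0.32, adjusted p = 0.0482). Nucleus was lower than whole cell for 6 of 6 mRNAs, beside 29.0% of all genes, with log2 fold changes from -2.39 (MT-ATP8, SE 0.25, adjusted p = 1.29e-07) to -1.02 (MT-CYB, SE 0.20, adjusted p = 0.000264). None of the 6 overlapped between nucleus and whole cell, against 48.4% of all genes without overlap.

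Cytoplasm was higher than whole cell for 1 of 6 mRNAs (with spike-in scaling 6 were lower), MT-CO1 (0.59, SE 0.17, adjusted p = 0.00558), beside 22.3% of all genes, and that gene alone did not overlap, against 44.8%. With the replicate block 3 were called higher, MT-CO2 (0.59, adjusted p = 0.0114) and MT-CO3 (0.54, adjusted p = 0.017) with MT-CO1. The same 3 were called without cytoplasm replicate 1 or without cytoplasm replicate 2. MT-ATP6 (-0.06) and MT-ATP8 (-0.02) were near 0.

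These values are levels relative to the rest of each library. Scaled by the spike-ins, whose amounts per cell or per RNA the labels do not give, the median of all genes moved to -2.47 in wash against nucleus, -3.10 in wash against cytoplasm, -4.51 in wash against whole cell, -0.60 in nucleus against cytoplasm, -1.83 in nucleus against whole cell and -1.24 in cytoplasm against whole cell. With the spike-ins the 6 mRNAs lay between -0.19 and 0.45 in wash against nucleus, where 1 was called higher, and between -3.71 and -1.90 in wash against cytoplasm, where 6 were called lower. Relative to the median of all genes they lay at 2.28 to 2.92 and -0.61 to 1.20 with the spike-ins, and at 2.30 to 2.94 and -0.61 to 1.21 with TMM. In nucleus against cytoplasm the 6 were lower under every scaling tried. Gene-body counts, which change the library totals but not the counts of these genes, gave -4.42 to -2.81 there and 3.50 to 4.14 in wash against nucleus.

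**Figure D2:**
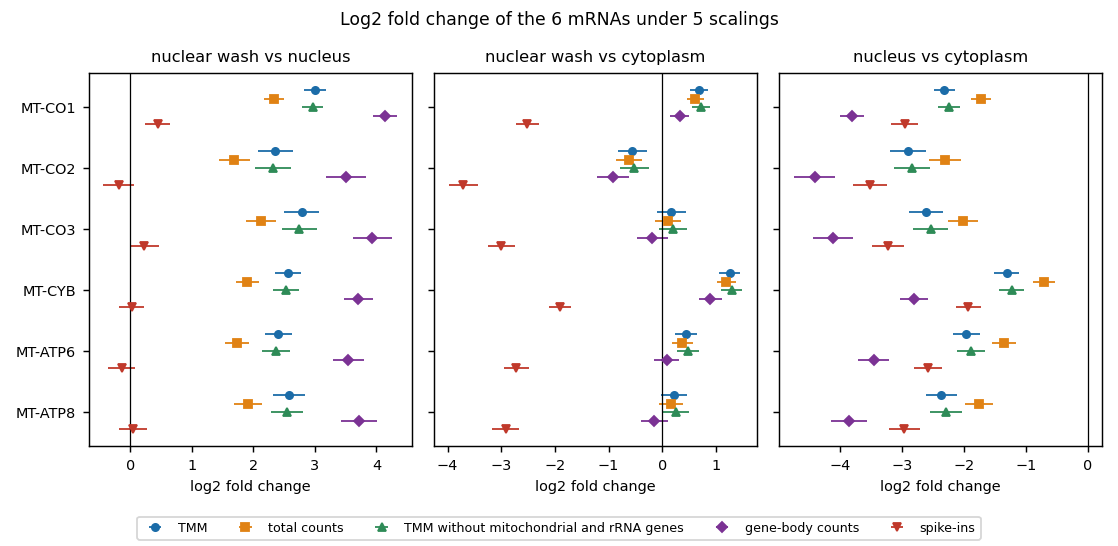
Log2 fold change (x axis, bars are SE) of the 6 mRNAs in 3 comparisons under 5 ways of scaling the libraries. Nucleus lies below cytoplasm throughout, while wash against nucleus falls to about 0 and wash against cytoplasm turns negative with the spike-ins.

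Summed, the 6 mRNAs took 3.40, 5.39 and 4.83% of exon counts outside rRNA genes in undepleted wash. They took 3.62, 2.92, 3.85 and 4.13% in nuclear wash, 0.973, 0.477, 0.650 and 0.665% in nucleus, 2.18, 2.32, 2.73 and 3.04% in cytoplasm, and 2.11, 2.05, 2.09 and 2.40% in whole cell. Nucleus was lowest in every replicate. Within the 13 mitochondrial mRNAs, a share that no library scaling touches, the 6 took 36.6 to 37.0% in undepleted wash, 44.0 to 48.9% in nuclear wash, 34.96 to 41.0% in nucleus, 52.4 to 60.1% in cytoplasm and 50.4 to 51.8% in whole cell. Among the depleted groups, cytoplasm lay above whole cell, whole cell above wash, and wash above nucleus, with no overlap between libraries. Undepleted wash lay below depleted wash and inside the range of nucleus, so the order of wash and nucleus was seen only with depletion. The remaining share belongs to the 7 mRNAs of complex I.

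**Figure D3:**
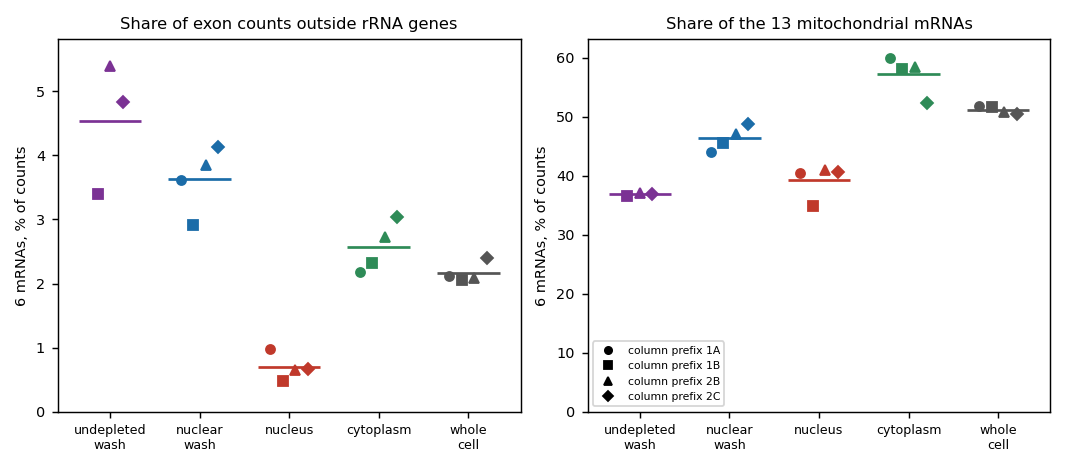
Summed counts of the 6 mRNAs as a percentage of exon counts outside rRNA genes (left) and of the 13 mitochondrial mRNAs (right), 1 point per library with the shape giving the column prefix and a line at the group mean. The share of the 13 mRNAs ran from 52.4 to 60.1% in cytoplasm and from 34.96 to 41.0% in nucleus.

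Among the 6, MT-CO1 held 57.4 ± 4.4% of the counts in depleted nuclear wash, 49.3 ± 2.46% in nucleus, 52.5 ± 9.08% in cytoplasm and 45.8 ± 3.24% in whole cell (SD, n = 4 each). In undepleted wash MT-CO1 held 45.1 ± 1.22% (SD, n = 3). Its libraries there ran from 43.9 to 46.3%, against 51.1 to 61.2% in depleted wash. MT-CYB held 11.2 ± 0.701% in nuclear wash, 13.3 ± 1.97% in nucleus, 6.68 ± 0.808% in cytoplasm and 7.46 ± 0.496% in whole cell, so its share in wash and in nucleus lay above that in cytoplasm and in whole cell. In cytoplasm replicate 4 MT-CO1 held 40.1% of the 6, against 51.3 to 59.6% in the other cytoplasm libraries. There MT-CO2 held 15.1%, against 8.55 to 10.0% in the others.

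Ratios between the mRNAs within a library were compared in 49 tests (7 ratios in 7 comparisons, two-sided exact permutation over libraries). With 4 libraries against 4 the smallest possible p is 0.0286, and after adjustment 0 of 49 passed, the lowest adjusted p being 0.07. A ratio at that smallest p could pass only if many of the other tests reached it too. That 0 passed therefore says little about any single ratio. Unadjusted p under 0.05 was reached by 2 of 7 ratios in wash against nucleus, 1 in wash against cytoplasm, 3 in nucleus against cytoplasm, 5 in wash against whole cell, 5 in nucleus against whole cell, 1 in cytoplasm against whole cell and 3 in undepleted against depleted wash. The ratios below are geometric means of counts.

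MT-CYB over MT-CO1 was 0.268 in nucleus and 0.128 in cytoplasm (exact permutation p = 0.0286, adjusted p = 0.07), higher in every nuclear library. MT-CO3 over MT-ATP6, adjacent genes, was 0.582 in nucleus and 0.906 in cytoplasm (exact permutation p = 0.0286, adjusted p = 0.07), and no nuclear library reached a cytoplasmic one. MT-ATP8 over MT-ATP6, parts of 1 mRNA, was 0.384 in nucleus and 0.492 in cytoplasm (exact permutation p = 0.0286, adjusted p = 0.07). Its library values were 0.366 to 0.405 in nucleus and 0.419 to 0.577 in cytoplasm, so these ratios too did not overlap, although both counts come from the bicistronic transcript. MT-CO2 over MT-CO1 was 0.0884 in depleted nuclear wash and 0.198 in cytoplasm (exact permutation p = 0.0286, adjusted p = 0.07). In undepleted wash this ratio was 0.223, above every depleted wash library (exact permutation p = 0.0286, adjusted p = 0.07). The low value in wash was therefore seen only with rRNA depletion. No paired test of the ratios could pass, since 4 pairs cannot give an exact permutation p below 0.125.

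The undepleted wash was scaled with the depleted wash alone, so its CPM are not on the scale used above. MT-CO2 had 2129.8, 4012 and 4088 CPM in undepleted wash, against 1608, 795, 1232 and 1369 CPM in depleted wash. MT-CO3 had 2981, 4980.1 and 4714 CPM in undepleted wash, against 2431, 1462, 2379 and 2687 CPM in depleted wash. MT-CYB had 3362, 4958 and 4962 CPM in undepleted wash, against 3142, 2082, 2766 and 2891 CPM in depleted wash. For these 3 the groups did not overlap, against 27.3% of the 11627 genes tested.

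The same 3 of 6 mRNAs were called higher without depletion, beside 7.75% of all genes: MT-CO2 by 1.45 (SE 0.27, adjusted p = 0.0066), MT-CO3 by 0.92 (SE 0.24, adjusted p = 0.032) and MT-CYB by 0.70 (SE 0.20, adjusted p = 0.0446) on the log2 scale. MT-ATP6 had 3286, 5391 and 4645 CPM in undepleted wash, against 3760.0, 2067, 2679.7 and 3055 CPM in depleted wash (0.62, adjusted p = 0.104). MT-ATP8 had 1227, 2008 and 1934 CPM in undepleted wash, against 1593, 999, 1162 and 1307 CPM in depleted wash (0.45, adjusted p = 0.198). MT-CO1 had 11205, 17612 and 15907 CPM in undepleted wash, against 13076, 11688, 14754 and 15688 CPM in depleted wash (0.11, adjusted p = 0.762), and these 3 overlapped.

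Undepleted replicate 1, which carries column prefix 1B, was the lowest undepleted library for each of the 6. With the prefix as a block over 6 libraries, 5 of 6 were called, MT-ATP6 (0.76, adjusted p = 2.09e-08) and MT-ATP8 (0.55, adjusted p = 1.22e-05) among them. Only MT-CO2 stayed called without nuclear wash replicate 2 or 3, or without undepleted replicate 2 or 3, which left 1 of 6, and MT-CYB was also lost without nuclear wash replicate 4. Without nuclear wash replicate 1 or undepleted replicate 1, MT-ATP6 was called as well. MT-RNR1, the 12S rRNA of the mitochondrial ribosome, averaged 100080.4 ± 22671 CPM in undepleted wash (n = 3) and 82.1 ± 60.2 CPM in depleted wash (n = 4). MT-RNR2, the 16S rRNA, averaged 398941 ± 130453 CPM in undepleted and 196412 ± 38925 CPM in depleted wash (SD). Whether these rRNAs bear on the values of the 6 mRNAs was not tested.

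**Figure D4:**
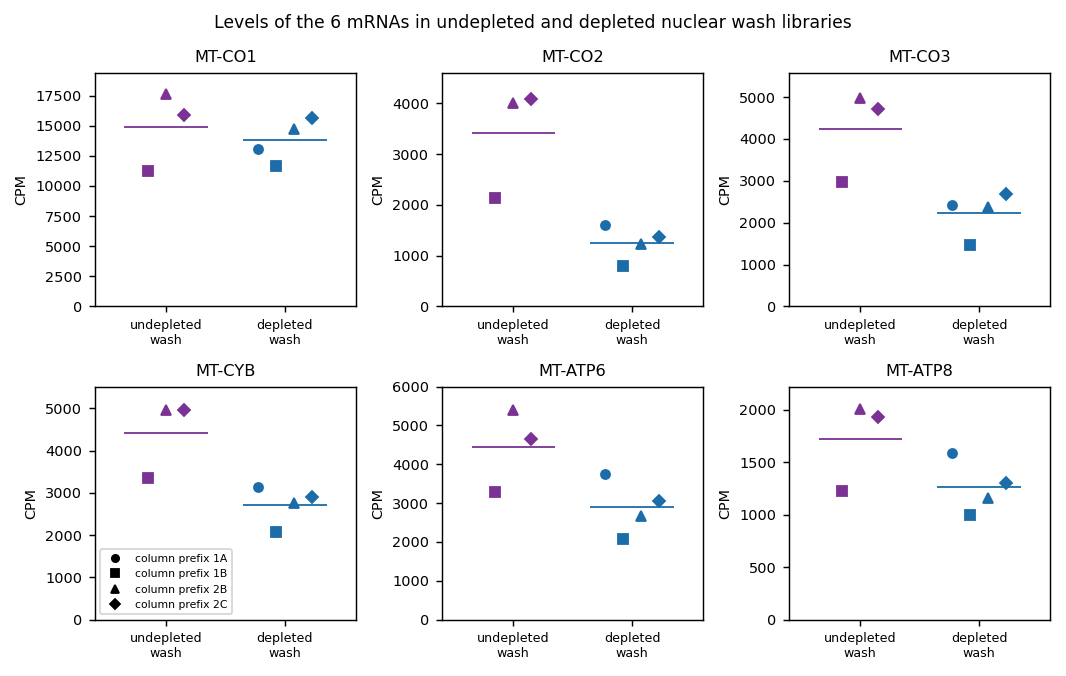
CPM of the 6 mRNAs in 3 undepleted and 4 depleted nuclear wash libraries (scaled over these 7 libraries), 1 point per library with the shape giving the column prefix and a line at each group mean. MT-CO2 ranges from 2129.8 to 4088 CPM in undepleted wash and from 795 to 1608 CPM in depleted wash.

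Nuclear DNA carries old copies of mitochondrial genes, and 24 annotated copies of the 6 were looked up; 13 passed the filter on low counts. A block on chromosome 1 holds near-identical copies of MT-CO1 (98.7% identity), MT-CO2 (98.2%), MT-ATP8 (97.6%) and MT-ATP6 (98.5%) and of part of MT-CO3 (98.2%). MTATP6P1 (chr1:633696-634376) differs from MT-ATP6 at 10 of 681 bases, and the longest identical run is 141 bases. The 60 bases with the most differences are shown, because reads that cover no differing base cannot be assigned to a copy. Capitals mark the 3 differing bases.
MT-ATP6, chrM:8642-8701: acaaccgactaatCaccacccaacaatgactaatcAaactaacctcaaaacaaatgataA
MTATP6P1, chr1:633811-633870: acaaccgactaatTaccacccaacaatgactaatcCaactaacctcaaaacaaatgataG

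Counts of the MT-ATP6 copies came to 23.5 to 28.7% of the MT-ATP6 count in undepleted wash, 10.2 to 13.7% in nuclear wash, 9.41 to 14.5% in nucleus, 11.1 to 13.3% in cytoplasm and 10.5 to 12.4% in whole cell. For the other 5 genes the copies reached at most 2.55% of the gene's own count in any library, MT-CO2 in nucleus. MTATP6P1 averaged 1183 ± 363 CPM in undepleted wash (SD, n = 3) and 339 ± 120 CPM in depleted wash (SD, n = 4), a log2 fold change of 1.81 (SE 0.28, adjusted p = 0.002, edgeR). The copy MTCO1P12 changed the other way, with 112 ± 23.5 CPM in undepleted and 242 ± 98.1 CPM in depleted wash (-1.10, SE 0.30, adjusted p = 0.0366). The assignment of reads between genes and copies is uncertain here, and its part in the values of MT-ATP6 was not tested.

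The 7 mitochondrial mRNAs of complex I, NADH dehydrogenase, come from the same genome. All 7 were higher in wash than in nucleus, beside 36.7% of all genes. Their median log2 fold change was 2.36, beside 2.57 for the 6 mRNAs of complexes III to V and 0.06 for all genes. In nucleus against cytoplasm, 4 of 7 were lower and 2 higher, beside 37.5% and 39.3% of all genes. The median was -1.47, beside -2.34 for the 6. MT-ND3 averaged 317 ± 67.6 CPM in nucleus and 181 ± 53.2 CPM in cytoplasm (0.81, adjusted p = 0.000316, edgeR). MT-ND6, read from the opposite strand, averaged 812 ± 144 CPM in nucleus and 592 ± 137 CPM in cytoplasm (0.46, adjusted p = 0.0202). In wash against cytoplasm 4 of 7 were higher and 0 lower, beside 22.8% and 21.4% of all genes. The highest log2 fold changes there were those of MT-ND6 (2.79), MT-ND3 (2.78) and MT-ND5 (2.06). These fold changes use TMM, and those with the spike-ins are not given for the 7.

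The nuclear-encoded subunits of complexes III, IV and V were mostly lower in nucleus than in cytoplasm, with 9 of 9 lower in complex III, 11 of 12 in complex IV and 17 of 18 in complex V, beside 37.5% of all genes. Medians were -1.87, -1.83 and -1.92, beside 0.02 for all genes. UQCR10, a small subunit of complex III, averaged 3.28 ± 0.898 CPM in nucleus and 34.9 ± 5.21 CPM in cytoplasm (-3.42, SE 0.23, adjusted p = 2.07e-11, edgeR). COX8A and COX6B1 of complex IV changed by -3.23 and -3.17, UQCRQ of complex III by -2.54, and ATP5PF and ATP5MG of complex V by -2.57 and -2.45. All 18 complex V subunits, 12 of 12 of complex IV and 8 of 9 of complex III were higher in wash than in nucleus, beside 36.7% of all genes. Medians there were 1.17, 1.78 and 1.42, beside 0.06 for all genes. These values use TMM, and values with the spike-ins are not given for these subunits. Subunits here are the genes listed for each complex, which counts COX7A2L in complex IV and ATP5IF1 in complex V.

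In wash, 7 of 9 complex III, 4 of 12 complex IV and 12 of 18 complex V subunits were lower than in cytoplasm. Called higher were 0, 1 and 0, beside 21.4% of all genes lower and 22.8% higher. Among these complexes, the counts of complex IV lay nearest to the shares of all genes. Medians were -0.78, -0.09 and -0.65, beside 0.33 for the 6 mitochondrial mRNAs, and the difference between these groups was not tested. UQCR10 changed by -1.30, UQCRFS1, the Rieske iron-sulphur subunit, by -1.05, ATP5F1D of the synthase stalk by -1.19, ATP5PF by -0.98 and COX7A2L by -0.93. COX6A1 was the single subunit called higher, averaging 17.4 ± 6.2 CPM in wash and 6.87 ± 1.32 CPM in cytoplasm (1.30, SE 0.27, adjusted p = 0.000549).

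**Figure D5:**
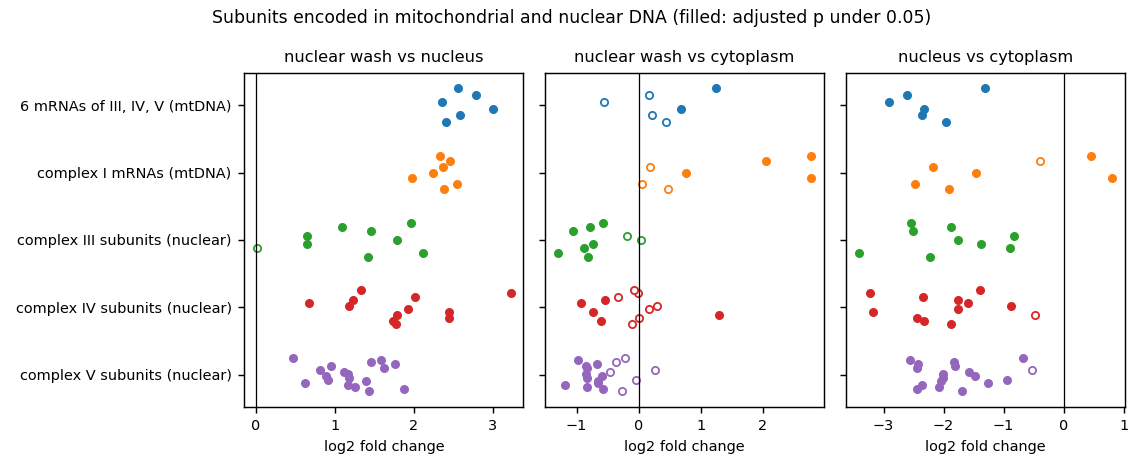
Log2 fold change (x axis) of mitochondrially encoded mRNAs and of nuclear-encoded subunits in 3 comparisons, 1 point per gene, filled where the adjusted p was under 0.05. In wash against cytoplasm the 6 mRNAs lie between -0.56 and 1.25 with TMM (-3.71 and -1.90 with the spike-ins), and the complex V subunits between -1.19 and 0.27.

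Factors that assemble these complexes or handle mitochondrial RNA were called in both directions. Of 33 assembly factors tested, 10 were higher and 15 lower in nucleus than in cytoplasm, beside 39.3% of all genes higher and 37.5% lower. In wash against cytoplasm 2 were higher and 11 lower, beside 22.8% and 21.4% of all genes. COA6, a copper chaperone factor of complex IV, changed by -2.73 in nucleus against cytoplasm and COX20, which stabilises MT-CO2 protein, by 2.23, while ATPAF1 and LYRM7 changed by -1.14 and -0.96 in wash against cytoplasm. Of 33 RNA handling factors, 9 were higher and 16 lower in nucleus than in cytoplasm, and 8 were higher and 7 lower in wash than in cytoplasm, the wash counts being close to the shares of all genes. HSD17B10, a subunit of mitochondrial RNase P, changed by -2.86 and FASTK, which binds mitochondrial RNA, by 2.30 in nucleus against cytoplasm. The translation factors GFM1 and GFM2 changed by 2.21 and 1.05 in wash against cytoplasm.

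Over the 16 depleted libraries the log2 CPM of the 6 mRNAs moved together to different degrees, given as a description. Pearson's r was highest between MT-ATP6 and MT-ATP8 (0.993) and lowest between MT-CO2 and MT-CYB (0.749). Among 10987 genes at 5 CPM or more, the 5 closest to the mean of the 6 were MT-ND2 (0.986), MTATP6P1 (0.983), MT-RNR2 (0.982), MT-ND4L (0.978) and MT-ND1 (0.978). Outside mitochondrial DNA the closest after MTATP6P1 were the copy MTND2P28 (0.968), KDELR1 (0.968), which encodes a receptor that returns proteins to the endoplasmic reticulum, CTCF (0.962) and TAF7 (0.961). The gene most like MT-CO1 was LAPTM4B (0.988), most like MT-CO2 STMN1 (0.973), most like MT-CO3 MT-ND2 (0.981) and most like MT-CYB MANF (0.974). The 16 points fall into 4 fractions, and differences between fractions weigh heavily in these values.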

How the data were processed

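Libraries were stranded total RNA libraries (SMARTer kit) from Trizol LS extracts, per the labels' protocols. The authors deposited raw read counts per gene over exons and over gene bodies for 19 libraries; per the submitters' processing notes, STAR 2.7.0a, cutadapt 2.5 and featureCounts 1.6.2 were used with hg38. Not given in the sources used here: annotation release, strand setting and what became of reads that fit several genes. Every column matched one library. Gene positions came from GENCODE 29 (57447 of 58051 identifiers matched).

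Exon counts were tested with edgeR 4.0.16 (R 4.3.3): filterByExpr, TMM, quasi-likelihood test, Benjamini-Hochberg over all genes, calls at adjusted p under 0.05. The 16 depleted libraries shared one fit (15940 genes) and the 7 wash libraries another (11627 genes). SE is the fold change over the root of F. The 11 spike-in transcripts (0.192 to 4.14% of counts) stayed out of library sizes. CPM means are ± SD. Both tests were checked on simulated data. DESeq2 1.42.0, other scalings, filters and left-out libraries served as alternatives. Same-numbered libraries of different fractions deviated together in all 24 pairings (correlations 0.104 to 0.379, median 0.196). Replicate numbers were therefore taken to pair the samples in the alternatives with a replicate block and in the paired ratio tests. The main edgeR fits and the main ratio tests used no pairing, and the calls that the block changed are given with each comparison. Libraries with other numbers under the same column prefix correlated about as highly (24 pairings, -0.046 to 0.326, median 0.202), so number and prefix are not told apart by this check; undepleted libraries were paired by column prefix. Replicate libraries differed by more than sampling noise. The smallest count of the 6 genes in a depleted library was 542.

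The 6 genes, the gene lists and the alternatives were chosen with earlier results of these data known. Genes named from lists of more than 7 are the 2 called genes with the largest change at a mean of 5 CPM or more in nucleus and in nuclear wash against cytoplasm. The nuclear copies are an exception, named for undepleted against depleted wash. From lists of up to 7 genes only some are given with values. For the likeness of pattern, the 5 genes with the highest correlation are named, and the closest gene for single members.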

Additional observations from a re-analysis of the deposited data

Results flagged for a closer look

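Of 84 sets of 4 libraries examined, 12 had 1 library whose gap to its nearest neighbour took most of the set's range (Dixon's test). Chance gives about 1 in 20 for independent sets. These sets reuse the same genes and libraries and are not independent, so the number flagged is a description only. In nucleus replicate 1, MT-CO2 stood at 542 CPM, MT-CO3 at 735 CPM and MT-CYB at 927 CPM, all above the other nuclear libraries, and MT-CO3 took 10.3% of the 6 mRNAs. In nuclear wash replicate 1, MT-ATP6 took 14.7% of the 6 mRNAs, and the ratios to MT-CO1 were 0.288 for MT-ATP6, 0.122 for MT-ATP8 and 0.240 for MT-CYB, each the highest of the wash libraries. The ratio of MT-ATP8 to MT-ATP6 was highest in nuclear wash replicate 2, at 0.483, and the ratio of MT-ATP6 to MT-CO1 lowest in nucleus replicate 3, at 0.291. The 6 mRNAs took 34.96% of the 13 mitochondrial mRNAs in nucleus replicate 2, below the other nuclear libraries, and 2.40% of exon counts outside rRNA genes in whole cell replicate 4, above the other whole-cell libraries. The nucleus against cytoplasm difference of MT-CYB differed between the column prefixes by 1.19 on the log2 scale (edgeR interaction test added after seeing the data, adjusted p = 0.0391).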

How the results depend on the processing

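Under every alternative and every left-out library, 6 of 6 mRNAs were called lower in nucleus than in cytoplasm and than in whole cell; 6 of 6 were called higher in nuclear wash than in nucleus except with spike-in scaling, which called 1, with MT-CO2 at -0.19 and MT-ATP6 at -0.14, not called. In nuclear wash against cytoplasm, spike-in scaling called 0 higher and 6 lower (MT-CO1 -2.51, MT-CO3 -3.00, MT-CYB -1.90, MT-ATP6 -2.72, MT-ATP8 -2.92). Gene-body counts called 1 higher, MT-CYB, and 1 lower, MT-CO2, and turned the sign of MT-CO3 (-0.18) and MT-ATP8 (-0.14), which were not called. No composition factor, no filter on low counts, the replicate block and column prefix 2 alone each called 1 lower, MT-CO2; in prefix 2 MT-CO3 (-0.039) and MT-ATP8 (-0.22) turned sign, not called. In nuclear wash against whole cell, spike-in scaling called 0 higher and 6 lower (MT-CO1 -3.16, MT-CO2 -4.39, MT-CO3 -3.73, MT-CYB -2.90, MT-ATP6 -4.05, MT-ATP8 -4.23), and gene-body counts called 5 higher. There MT-CO2 and MT-ATP8 were at -0.25 and -0.12 with no composition factor, and MT-CO2 at -0.033 in column prefix 2, all not called. The changed calls of MT-CO3 and MT-ATP6 there are given above.

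In cytoplasm against whole cell, 0 were called higher with no composition factor, with spike-in scaling (6 lower; MT-CO1 -0.65, MT-CO2 -0.68, MT-CO3 -0.74, MT-CYB -0.998) and in column prefix 1. There 2 were called higher with DESeq2 and with TMM without mitochondrial and rRNA genes (MT-ATP8 0.0077), 3 with no filter and with the replicate block, 5 in column prefix 2 (MT-ATP6 0.15, MT-ATP8 0.32) and 6 with gene-body counts (MT-ATP6 0.78, MT-ATP8 0.82). In undepleted against depleted wash, 1 was called higher with no composition factor (MT-CO1 -0.41, MT-ATP8 -0.070) and with spike-in scaling (MT-CO1 -0.11), 5 with the replicate block by column prefix; MT-CO1 was at -0.0063 with no filter. The replicate block changed no call beyond those named. The cause of these changes was not tested.

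With no composition factor the median of all genes was -0.60 in wash against nucleus, 0.63 in nucleus against cytoplasm and -0.55 in undepleted against depleted wash. The summed share was 2.68% in undepleted wash, 2.79% in nuclear wash, 2.03% in cytoplasm and 1.79% in whole cell with rRNA genes included, and 2.75% in nuclear wash, 0.197% in nucleus and 1.13% in whole cell of gene-body counts.

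Leaving out 1 library gave 2 to 3 called higher and 0 to 1 lower in nuclear wash against cytoplasm, 2 to 3 higher in nuclear wash against whole cell, 1 to 3 in cytoplasm against whole cell and 1 to 4 in undepleted against depleted wash. Signs turned for MT-CO2 in nuclear wash against whole cell (-0.054 to 0.24), MT-ATP6 (-0.24 to 0.041) and MT-ATP8 (-0.31 to 0.12) in cytoplasm against whole cell and MT-CO1 in undepleted against depleted wash (-0.026 to 0.28). Among log2 ratios they turned in nucleus against cytoplasm for MT-CO3 to MT-CO1 (-0.41 to 0.0016) and MT-ATP8 to MT-CO1 (-0.15 to 0.30). In cytoplasm against whole cell they turned for MT-CO2 to MT-CO1 (-0.37 to 0.089), MT-CO3 to MT-CO1 (-0.35 to 0.061) and MT-ATP8 to MT-ATP6 (-0.10 to 0.050).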

Other observations

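Over the 13 mitochondrial mRNAs, the length of the gene had little relation to its log2 fold change, given as a description across genes, which are not independent replicates. Pearson's r was 0.370 in nuclear wash against nucleus, 0.070 in nuclear wash against cytoplasm and -0.017 in nucleus against cytoplasm.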
